A study of Mus musculus with 6 samples.

Results

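The genes described here are 37 mouse cytokine receptor genes, the cell-surface chains through which blood cells read interleukins, colony-stimulating factors, interferons, transforming growth factor beta (TGF-beta) and tumour necrosis factor (TNF). They were chosen by symbol from a fixed list, and all 37 have a row among the 53819 genes of the count table. The leukaemia was a mouse model of blast-crisis chronic myeloid leukaemia (bcCML) driven by the fusion oncogenes BCR-ABL and NUP98-HOXA9 and transplanted into recipient mice. Leukaemic cells were sorted from the recipients' spleens. The 3 KO libraries came from leukaemia with the genotype SLC6A6 KO (the gene encodes the taurine transporter), and the 3 WT libraries from leukaemia with the genotype SLC6A6 WT. All 6 libraries share both oncogenes, the transplant and the spleen as source. The series title speaks of a knock-down and the sample labels of a knockout, and the labels give neither how the gene was targeted nor whether each library is a different mouse. The p-values therefore measure only the spread between these libraries, which may in part be technical.

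Cytokine receptors work as small assemblies in which a chain that recognises 1 ligand is combined with a chain shared by several ligands. In the common beta family the ligand-specific chains for interleukin 3 (IL-3), IL-5 and granulocyte-macrophage colony-stimulating factor (GM-CSF) share Csf2rb. In the gp130 family the shared chain is Il6st, and in the common gamma family it is Il2rg. Genes are grouped here by family, and not every gene of a family uses its shared chain: Il31ra, for example, pairs with Osmr. Receptors of these families have no kinase of their own and signal through bound JAK kinases to STAT transcription factors. IL-1 and IL-17 receptors signal through adaptor proteins, TNF receptors through TRAF or death-domain proteins, and TGF-beta receptors are themselves kinases that act on SMAD proteins. BCR-ABL can activate STAT5 without any cytokine.

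The libraries held 42829294 to 44902511 counts in KO and 44950191 to 49537098 counts in WT, so that 3 counts correspond to between 0.0594 and 0.0727 CPM, the read count scaled to the library's effective size. The targeted gene, Slc6a6, had 125, 132 and 133 CPM in KO and 151, 145 and 145 CPM in WT, a log2 fold change of -0.18 ± 0.07 (SE) with an adjusted p of 0.196. The counts over the whole gene thus did not separate the genotypes beyond the test's threshold, and with the targeted stretch not stated they check the labels only weakly. Genes of the Y chromosome summed to 11236, 10825 and 10274 counts in KO and to 0, 0 and 1 in WT. Genotype and this difference in sex chromosome content follow the same split and cannot be told apart. The labelled cell type was checked on 15 progenitor and leukaemia genes. By edgeR 1, Kit, rose and 0 fell (6.67%, against 3.56% of all genes tested). At an unadjusted p under 0.05, 2 were higher and 4 lower, against 22% of all genes in either direction. DESeq2 called 1 higher and 3 lower, and limma-voom 1 higher and 0 lower. Of the 15, 9 were negative, with a median log2 fold change of -0.39 and a first quartile of -1.62. Cd34, Flt3, Mpo, Elane, Prtn3 and Ctsg are among the 15 but are not described singly. Gata2, Myb, Meis1, Hoxa9, Ptprc and Spn were expressed in all 6 libraries, Itgam reached at most 1.01 CPM in KO and 1.76 CPM in WT, and Cebpa stayed under 1 CPM. Genes of other cell types were also present. Summed erythroid genes ranged from 10211 to 33519 CPM in KO and from 4685 to 14964 CPM in WT, and the lists that touch a receptor are given beside it.

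Of the 37 receptor genes, 34 passed the filter on low counts. The filter's cutoff was exceeded in all 6 libraries by 28 of them, while Il31ra, Csf3r and Il2rb passed mainly through the KO libraries and Il13ra1, Il1r1 and Il1r2 mainly through the WT libraries. Il5ra and Osmr had no count in any library, which at 3 counts allows up to 0.0727 CPM in a library (counting error only), and Lepr had 0 counts in each KO library and 40, 0 and 19 in WT. Levels were compared between genes only per kilobase of annotated exon. On that scale 7 genes averaged at least 10 CPM per kb over both groups, 18 lay between 1 and 10, and 10 lay above 0 and under 1. Il2rg, the common gamma chain, and Ifngr1, the ligand-binding chain for interferon gamma, led with 51.7 and 53.8 CPM per kb in KO, against 50.7 and 42.9 CPM per kb in WT. Crlf2, Il27ra, Ifnar2, Il17ra and Tnfrsf1a followed.

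In KO 4 of the 34 tested receptor genes rose, or 11.8%, at an adjusted p under 0.05 (edgeR's quasi-likelihood test, Benjamini-Hochberg adjustment over the 15232 genes tested). They were Il31ra, Il2rb, Tnfrsf1b and Il17ra, and they belong to 4 different families. Over all genes tested, 3.56% were called in either direction, 1.64% higher and 1.92% lower. Since Il31ra and Il2rb passed the filter mainly through the KO libraries where they were high, their place in that count is no support for a shift of the whole list. By edgeR 0 receptor genes were called lower, with 5 lower at an unadjusted p under 0.05, while limma-voom called 0 and DESeq2 called 3. At an unadjusted p under 0.05, 10 were higher, so that 15 of the 34 passed it in either direction, against 22% of all genes tested (3355 of 15232). The median log2 fold change of the 34 was 0.06, with 19 positive and 15 negative, against 0.01 over all genes, with 7750 positive and 7482 negative. The KO and WT libraries did not overlap for 17 of the 34 (11 higher and 6 lower in KO), or 50.0%, against 28% of all genes tested (13.6% higher and 14.4% lower).

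**Figure D1:**
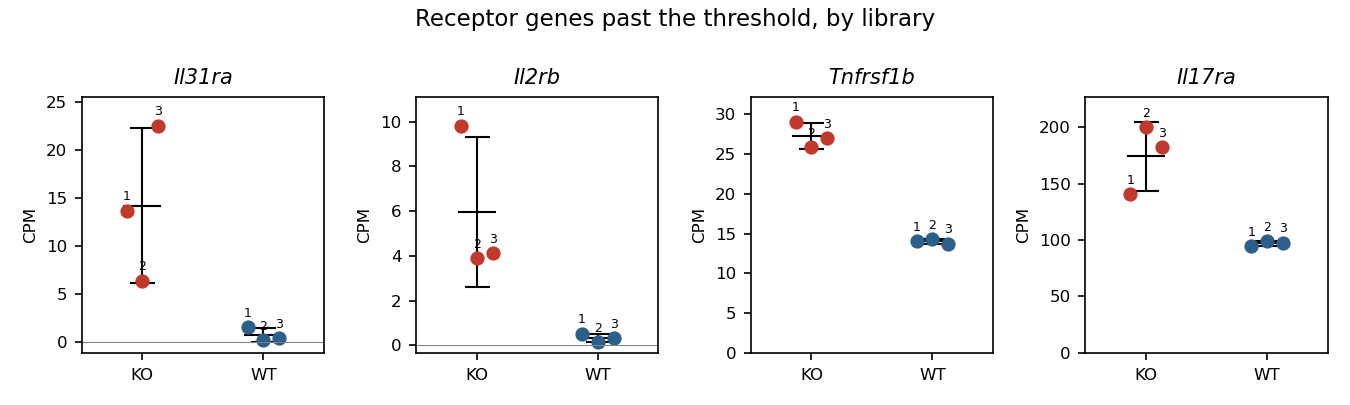
CPM (linear axes) in each of the 3 KO and 3 WT libraries for the 4 cytokine receptor genes past an adjusted p of 0.05, with numbered points for libraries and bars for the group mean ± SD. Il31ra and Il2rb sat at or below 1.57 CPM in every WT library, while Tnfrsf1b and Il17ra were expressed in both groups and differed by 1.95-fold and 1.79-fold.

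Il31ra encodes the ligand-binding chain of the IL-31 receptor, a gp130-like chain that pairs with the oncostatin M receptor chain encoded by Osmr. It was measured at 13.7, 6.40 and 22.5 CPM in KO and at 1.57, 0.211 and 0.398 CPM in WT. Every KO library was above every WT library, but the KO libraries differed among themselves by several fold. The means were 14.2 ± 8.08 CPM in KO and 0.725 ± 0.734 CPM in WT (SD, n = 3 each), a log2 fold change of 4.28 ± 0.83 (SE) or 19.4-fold, with an adjusted p of 0.0436 by edgeR. Osmr, its partner, and Il31, the ligand, had 0 counts in all 6 libraries. Leaving out 1 library at a time kept the fold between 13.8 and 45.8, the highest without WT1, and the adjusted p between 0.0393 and 0.159. It passed the threshold without KO2 or WT1 and missed it without any one of KO1, KO3, WT2 or WT3.

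Il31ra lies on chromosome 13 next to Il6st, the shared gp130 chain, and both were higher in every KO library. Il6st had 9.14, 15.0 and 5.67 CPM in KO and 3.41, 2.21 and 4.07 CPM in WT. Its mean was 9.92 ± 4.69 CPM in KO and 3.23 ± 0.940 CPM in WT (SD, n = 3 each), a log2 fold change of 1.62 ± 0.42 (SE) or 3.07-fold, with an adjusted p of 0.0826, so that it did not pass the test. The genes around the pair, taken in RefSeq gene order (GRCm38.p6) and chosen after the receptor values were seen, gave 12 measured genes. Within them an unbroken run of 5 had all KO libraries above all WT libraries: Map3k1, Il6st, Il31ra, Ddx4 and Slc38a9. Over all genes tested 13.6% had that order and 14.4% the reverse. Of the other measured genes Gapt had the reverse order, with a log2 fold change of -2.59 ± 0.79 and an adjusted p of 0.122. Ddx4, an RNA helicase of germ cells, averaged 15.8 ± 3.68 CPM in KO and 2.57 ± 1.83 CPM in WT and rose, with a log2 fold change of 2.62 ± 0.50 and an adjusted p of 0.0425, past the threshold without WT1 and not without any one of the other 5 libraries. Map3k1, a MAP kinase kinase kinase, averaged 8.83 ± 2.54 CPM in KO and 3.39 ± 0.586 CPM in WT (adjusted p = 0.0583). Slc38a9, the lysosomal arginine sensor, averaged 30.0 ± 4.92 CPM in KO and 18.2 ± 1.40 CPM in WT (adjusted p = 0.0607). The genes flanking the run were not called, with log2 fold changes of 0.55 for Mier3 and 1.21 for Plpp1. Exons of Il31ra share 45 bases with Gm3226, which had 7 to 14 counts in all libraries, and exons of 10 other receptor genes also overlap an annotated gene, 5 of them on the opposite strand, which the unstranded chemistry does not separate. Those overlapping genes with a row had at most 6 counts, except Palm3 beside Il27ra with 25 to 65 counts and 2 shared bases.

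**Figure D2:**
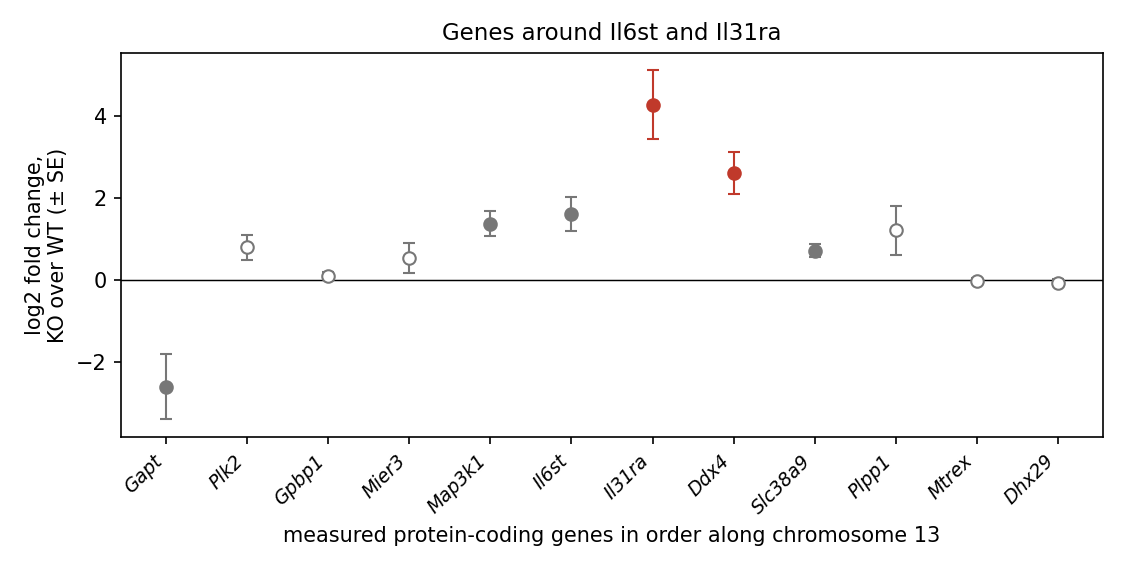
Log2 fold change (KO over WT) with its standard error for the 12 measured genes around Il6st and Il31ra, in RefSeq gene order along chromosome 13. Map3k1, Il6st, Il31ra, Ddx4 and Slc38a9 stood in an unbroken run with all KO libraries above all WT libraries, and 2 of the 5, Il31ra and Ddx4 (red), passed the threshold.

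The promoters of Il31ra, Il6st and Tnfrsf1b are shown because 2 of these genes rose and the third neighbours Il31ra. Each is the 250 bases before the RefSeq transcript start (GRCm38.p6), read 5′ to 3′ on the gene's strand. Il31ra lies at chr13:112580663-112580912 on the minus strand, Il6st at chr13:112463820-112464069 on the plus strand and Tnfrsf1b at chr4:145246871-145247120 on the minus strand. Capitals mark a match to the gamma-activated site TTCNNNGAA, the palindrome that STAT dimers bind.
Il31ra: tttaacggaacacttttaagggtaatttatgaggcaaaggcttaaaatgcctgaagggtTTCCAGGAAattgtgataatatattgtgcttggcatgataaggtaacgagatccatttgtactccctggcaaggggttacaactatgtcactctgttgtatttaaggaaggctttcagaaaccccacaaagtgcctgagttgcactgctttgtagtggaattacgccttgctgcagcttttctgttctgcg
Il6st: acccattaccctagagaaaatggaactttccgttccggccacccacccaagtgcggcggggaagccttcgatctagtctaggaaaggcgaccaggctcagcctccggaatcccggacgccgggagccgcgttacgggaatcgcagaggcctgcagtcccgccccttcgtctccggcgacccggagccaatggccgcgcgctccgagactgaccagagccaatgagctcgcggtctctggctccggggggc
Tnfrsf1b: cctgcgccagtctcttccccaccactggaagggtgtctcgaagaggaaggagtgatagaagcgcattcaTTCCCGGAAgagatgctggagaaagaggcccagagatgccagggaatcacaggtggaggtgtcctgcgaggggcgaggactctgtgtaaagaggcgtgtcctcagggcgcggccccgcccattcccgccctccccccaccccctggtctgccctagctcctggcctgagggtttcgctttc
The match begins at -191 in Il31ra and at -181 in Tnfrsf1b, counted from the start, and the Il6st window holds none. Windows were on hand for 31 of the 37 genes, as 39 transcript starts, and not for Il2rb and Il17ra, which also rose. Of these 39, 7 hold a gamma-activated site (17.9%), against 2306 of 32851 windows of the same length over all genes (7.02%). The Runx motif TGTGGT and the PU.1 motif GAGGAAGT, searched on both strands, were in 4 and 1 of the 39 (10.3% and 2.56%), against 14.0% and 2.44% of all windows. No match of 1 motif overlapped one of another in the windows printed. A match describes these letters and is not evidence of binding.

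Il2rb rose as well. It encodes the beta chain that IL-2 and IL-15 receptors need for signalling, and it is best known from NK cells and activated T cells. It had 9.81, 3.90 and 4.12 CPM in KO and 0.515, 0.148 and 0.332 CPM in WT. All 3 KO libraries were above all WT libraries, with KO1 the highest. The means were 5.94 ± 3.35 CPM in KO and 0.331 ± 0.184 CPM in WT (SD, n = 3 each), a log2 fold change of 4.15 ± 0.62 (SE) or 17.8-fold, with an adjusted p of 0.0247 by edgeR. Leaving out 1 library at a time gave 12.0-fold to 24.3-fold and adjusted p between 0.0311 and 0.116. It was past the threshold without KO2 or WT1 and not without any one of the other 4 libraries. Its neighbour C1qtnf6 averaged 18.8 ± 4.92 CPM in KO and 10.5 ± 3.77 CPM in WT, without overlap (log2 fold change 0.85 ± 0.32, adjusted p = 0.181). On the other side Kctd17, the nearest gene tested, had a log2 fold change of 0.47 ± 0.58 (adjusted p = 0.694).

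The remaining chains of the IL-2 and IL-15 receptors did not move with Il2rb. Il2rg, the common gamma chain encoded on the X chromosome, was at 123, 135 and 113 CPM in KO and 146, 96.2 and 121 CPM in WT. Its log2 fold change was 0.03 ± 0.16 (adjusted p = 0.942), and the groups overlapped. Il15ra, which presents IL-15, had 12.5 to 18.3 CPM in KO and 12.9 to 20.4 CPM in WT (log2 fold change -0.13 ± 0.23, adjusted p = 0.805). Il2ra, the alpha chain CD25 that raises affinity for IL-2, was not among the 37 but is the third chain of the same receptor. It fell, with 32.1, 26.5 and 29.7 CPM in KO and 238, 98.3 and 139 CPM in WT. The means were 29.4 ± 2.81 CPM in KO and 158 ± 71.9 CPM in WT, 81.4% lower, with a log2 fold change of -2.43 ± 0.31 and an adjusted p of 0.0171, which was 0.0656 without KO1, 0.0610 without KO3 and 0.0643 without WT3. Per kilobase, Il2rb averaged 1.39 CPM in KO and 0.0773 CPM in WT. The ligands were scarce, with mean Il2 at 0.396 CPM in KO and 0.275 CPM in WT, and mean Il15 at 0.772 CPM in KO and 0.437 CPM in WT.

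**Figure D3:**
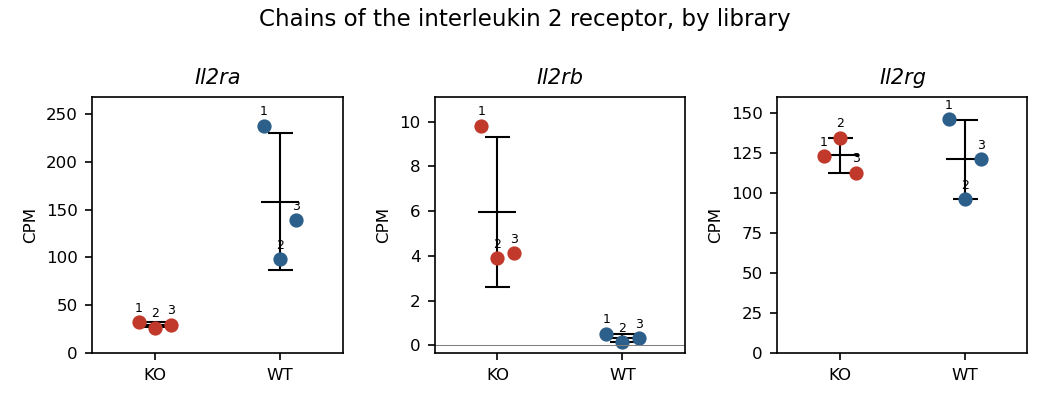
CPM per library (linear axes) for the 3 chains of the IL-2 receptor in 3 KO and 3 WT libraries, with numbered points for libraries and bars for the group mean ± SD. The alpha chain Il2ra was lower in KO, the beta chain Il2rb was higher in KO, and the common gamma chain Il2rg overlapped between the groups at 113 to 135 CPM in KO and 96.2 to 146 CPM in WT.

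As a sum, T-cell genes were higher in KO, like Il2rb. The 14 listed T-cell genes summed to 50.4, 21.0 and 39.3 CPM in KO and 13.6, 13.7 and 19.7 CPM in WT, and 5 of the 13 tested rose, against 1.64% of all genes. Lck, a kinase of T-cell receptor signalling, made up most of the WT sum with 12.3 to 18.4 CPM in WT, against 10.7 to 17.3 CPM in KO. Cd3e had 2.88, 1.00 and 2.55 CPM in KO and 0.0792, 0 and 0 CPM in WT, Cd3d had 2.93, 0.849 and 3.01 CPM in KO and 0.178, 0.0632 and 0.155 CPM in WT, and Cd4 had 0 counts in WT. Of the NK-cell genes, Ncr1 had 0.473, 0 and 0.267 CPM in KO and no count in WT, and 1 of the 7 tested rose, also against 1.64% of all genes. The NK-cell list summed to 713, 1037 and 813 CPM in KO and 853, 694 and 827 CPM in WT, nearly all of it Nkg7. Genes at or near 0 in WT, such as Cd3e, could pass the low count filter only through the KO libraries. They could then be called only as higher. The T-cell and NK-cell shares are therefore no support for a shift of those lists. By limma-voom 2 T-cell genes and 1 NK-cell gene rose. The part of T cells and NK cells in the Il2rb difference was not tested. In sorted bulk RNA, more cells of a type and more RNA per cell cannot be told apart, here or for any other gene below.

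Among TNF receptors, Tnfrsf1b rose with the least spread of the 4 called genes. It encodes TNFR2, the TNF receptor without a death domain that signals through TRAF proteins. It had 29.1, 25.8 and 27.0 CPM in KO and 14.1, 14.3 and 13.7 CPM in WT, and the spread within each group was small beside the gap. The means were 27.3 ± 1.64 CPM in KO and 14.0 ± 0.282 CPM in WT (SD, n = 3 each), a log2 fold change of 0.96 ± 0.13 (SE) or 1.95-fold, with an adjusted p of 0.0172 by edgeR. The fold stayed between 1.88 and 1.99 when any 1 library was left out, while the adjusted p ranged from 0.0309 to 0.0964 and missed the threshold without KO1, KO3 or WT3. Tnfrsf1a, the death-domain receptor TNFR1, had 32.5, 29.2 and 17.8 CPM in KO and 34.5, 18.6 and 25.1 CPM in WT, with a log2 fold change of 0.02 ± 0.29 and an adjusted p of 0.975. The genes on either side of Tnfrsf1b, Dhrs3 and Tnfrsf8, had log2 fold changes of -0.17 and -0.48 and were not called.

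Il17ra, the chain shared by the receptors for several IL-17 cytokines, was, per kilobase, the most abundant of the 4 genes among the 37 that rose, at 20.1 CPM per kb in KO and 11.2 CPM per kb in WT. It had 140.4, 200.04 and 182 CPM in KO and 94.7, 99.1 and 97.5 CPM in WT. All KO libraries were above all WT libraries, and the KO libraries varied more. The means were 174 ± 30.6 CPM in KO and 97.1 ± 2.22 CPM in WT (SD, n = 3 each), a log2 fold change of 0.84 ± 0.13 (SE) or 1.79-fold, with an adjusted p of 0.0268 by edgeR. Leaving out 1 library at a time gave 1.65-fold to 1.97-fold and adjusted p from 0.0181 to 0.116, past the threshold without KO1 or KO2 only. Il17a, a ligand, had no count in any library. Kdm5a and Hdhd5, the nearest tested genes on either side of Il17ra, had log2 fold changes of 0.09 and 0.21 and were not called.

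**Figure D4:**
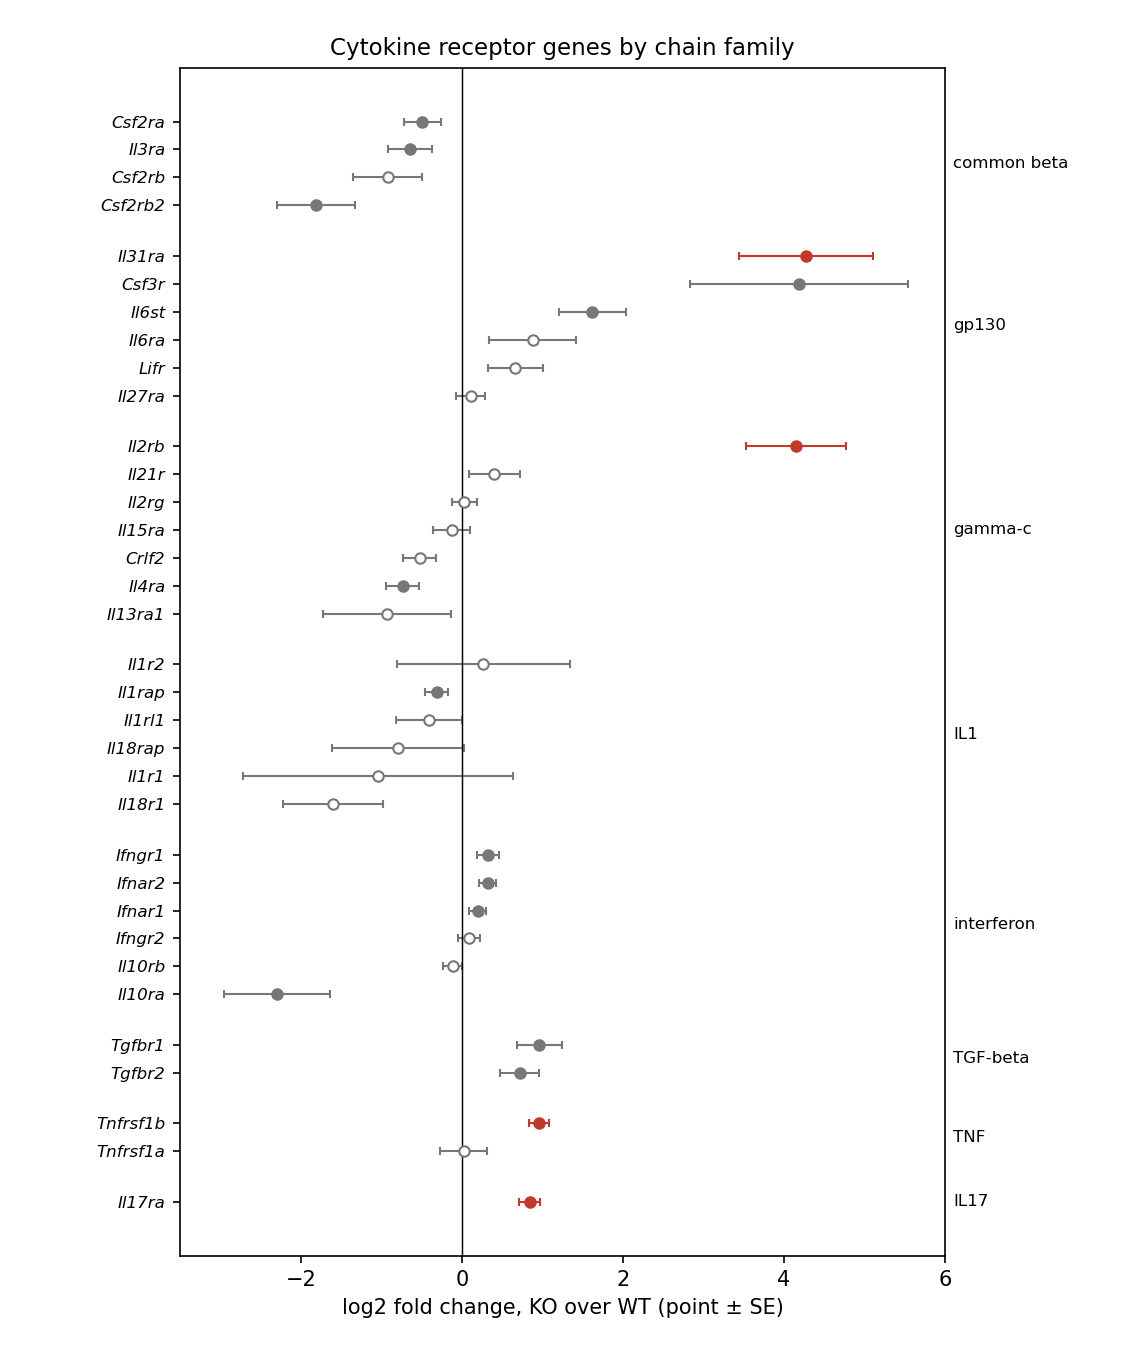
Log2 fold change (KO over WT) with its standard error for the 34 tested receptor genes, grouped by chain family (filled points, no overlap between groups, and red, adjusted p under 0.05). The 4 genes past an adjusted p of 0.05 lie to the right of 0, the tested common beta genes all lie to the left of 0 and the tested gp130 genes all to the right.

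In the common beta family 0 of the 4 tested genes passed edgeR's test (1 at an unadjusted p under 0.05, against 22% of all genes, 1 by DESeq2, 0 by limma-voom), and all 4 had negative values, with a median log2 fold change of -0.78. Csf2rb, the signalling chain for GM-CSF, IL-3 and IL-5, had 29.5, 21.1 and 14.4 CPM in KO and 67.1, 23.2 and 33.0 CPM in WT. The groups overlapped because KO1 was above WT2, and the log2 fold change was -0.92 ± 0.42 (adjusted p = 0.260), or -0.39 without WT1. Csf2rb2 encodes the second mouse beta chain, which serves IL-3 alone. It had 1.71, 2.53 and 1.96 CPM in KO and 12.6, 3.65 and 5.57 CPM in WT, with no overlap. Its means were 2.07 ± 0.417 CPM in KO and 7.26 ± 4.69 CPM in WT (SD, n = 3 each), 71.5% lower, with a log2 fold change of -1.81 ± 0.49 and an adjusted p of 0.0923 by edgeR. Without WT1 its log2 fold change was -1.18. DESeq2 called it, with an adjusted p of 0.00432. The 2 genes are closely related neighbours on chromosome 15, so reads may be divided between them by the counting. Csf2rb2 held 5.47%, 10.7% and 12.0% of the pair's counts in KO and 15.8%, 13.6% and 14.4% in WT, and the pair summed as 1 gene had a log2 fold change of -1.03 ± 0.42 (adjusted p = 0.214).

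The ligand-specific chains of this family were also lower in KO in every library, without passing the test. Csf2ra, the GM-CSF chain, had 12.3, 12.6 and 8.58 CPM in KO and 19.2, 13.04 and 14.9 CPM in WT (log2 fold change -0.49 ± 0.23, adjusted p = 0.265). Il3ra, the IL-3 chain, had 4.95, 9.65 and 8.73 CPM in KO and 12.3, 11.6 and 12.5 CPM in WT (log2 fold change -0.64 ± 0.27, adjusted p = 0.227). Both differ without overlap, as do 28% of all genes tested, by amounts that the fit does not separate from the spread between libraries. Il5ra, the eosinophil IL-5 chain, had no count. The 5 genes together summed to 48.5, 45.9 and 33.7 CPM in KO and 111, 51.5 and 65.9 CPM in WT. Of their ligands, Il3 had no count in any library, and Csf2 had 0, 1 and 4 counts in KO and 52, 12 and 31 counts in WT (adjusted p = 0.0925).

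In the gp130 family all 6 tested genes had positive values, and 1 of them, Il31ra, passed the test (16.7%, against 3.56% of all genes). At an unadjusted p under 0.05, 3 were higher, against 22% of all genes in either direction. DESeq2 called 2 higher and limma-voom 0. Since Il31ra and Csf3r passed the filter mainly through the KO libraries, their values are no support for a shift of the family. The family's median log2 fold change was 1.25, and 3 of the 8 listed genes had low or no counts: Osmr, Lepr and Il6ra. Csf3r, the G-CSF receptor of neutrophils and their precursors, had 23.1, 1.87 and 7.25 CPM in KO and 1.29, 0.464 and 0 CPM in WT. The groups did not overlap, but KO1 was far above KO2. The mean was 10.7 ± 11.02 CPM in KO and 0.584 ± 0.652 CPM in WT, a log2 fold change of 4.18 ± 1.35 or 18.2-fold with an adjusted p of 0.137, and leaving out 1 library at a time gave 7.74-fold to 44.7-fold. Neutrophil genes did not follow this order: the 11 listed summed to 238, 17.7 and 50.3 CPM in KO and 781, 143 and 112 CPM in WT. Of the 10 tested, 0 were called by edgeR, against 3.56% of all genes. At an unadjusted p under 0.05, 4 were lower and 0 higher, against 22% of all genes in either direction, and DESeq2 called 2 lower. Ly6g had 0.630, 0 and 0 CPM in KO and 2.26, 0 and 0.0884 CPM in WT. Within KO both Csf3r and the neutrophil sum were highest in KO1 and lowest in KO2. The part of neutrophils in the Csf3r values was not tested.

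The other gp130 genes varied among libraries as much as between groups. Lifr, the leukaemia inhibitory factor receptor, had 46.1, 72.1 and 48.2 CPM in KO and 54.9, 24.2 and 25.7 CPM in WT (log2 fold change 0.67 ± 0.35, adjusted p = 0.318). WT1 lay within the KO range, and without it the log2 fold change was 1.13. Il27ra, a receptor for IL-27, had 55.3, 74.4 and 52.4 CPM in KO and 63.6, 44.9 and 60.3 CPM in WT, with a log2 fold change of 0.11 ± 0.18 and an adjusted p of 0.784. Il6ra, the IL-6 chain, stayed at or below 1.02 CPM in KO and 0.506 CPM in WT. The ligand subunit Ebi3, which forms IL-27 with p28 and IL-35 with p35, fell, as the only called ligand: it had 3.78, 2.40 and 2.28 CPM in KO and 14.1, 6.79 and 9.09 CPM in WT, 71.8% lower, with an adjusted p of 0.0460.

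**Figure D5:**
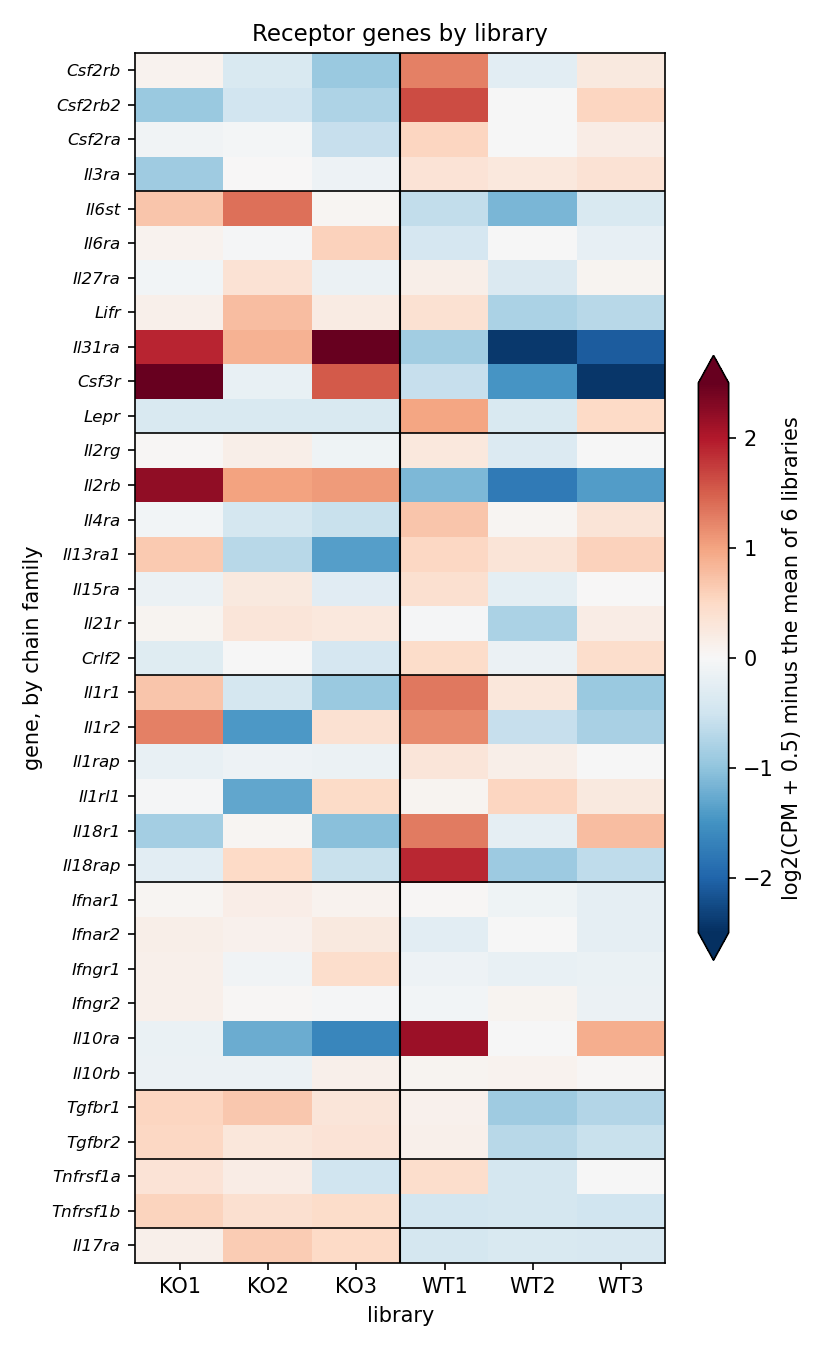
Log2(CPM + 0.5) in each library minus the gene's mean over the 6 libraries, as colour (red above, blue below), for the 35 receptor genes with a count, grouped by chain family. With the 3 KO columns left of the 3 WT columns, Il31ra, Il2rb and Csf3r show the widest differences, and WT1 stands above WT2 and WT3 for Csf2rb, Csf2rb2, Il10ra and Il18rap.

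Of the 7 common gamma genes and their partners, Il2rb passed the test and the other 6 did not (14.3% called, against 3.56% of all genes). At an unadjusted p under 0.05, 1 was higher and 2 were lower, against 22% of all genes in either direction. DESeq2 called 1 higher and 1 lower, and limma-voom called 1 higher and 0 lower. Il2rb had passed the filter mainly through the KO libraries. Il4ra, the chain for IL-4 and IL-13, had 29.7, 23.1 and 21.0 CPM in KO and 51.0, 32.6 and 39.3 CPM in WT, with no overlap. Its means were 24.6 ± 4.52 CPM in KO and 41.0 ± 9.27 CPM in WT (SD, n = 3 each), 39.9% lower, with a log2 fold change of -0.73 ± 0.21 and an adjusted p of 0.0990 by edgeR, against 0.0121 by DESeq2. Crlf2, the receptor chain for thymic stromal lymphopoietin, had 25.5 to 34.1 CPM in KO and 31.0 to 47.7 CPM in WT (adjusted p = 0.186). Il21r had 6.12 to 7.23 CPM in KO and 3.14 to 6.63 CPM in WT (adjusted p = 0.517). Il13ra1, which pairs with Il4ra, is X-linked like Il2rg and had 0.194 to 2.32 CPM in KO and 1.73 to 2.17 CPM in WT (adjusted p = 0.555).

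Of the 6 IL-1 family genes 0 passed edgeR's test (1 at an unadjusted p under 0.05, against 22% of all genes, 0 by DESeq2 and limma-voom), and their median log2 fold change was -0.60. Il1rl1 encodes ST2, the IL-33 receptor of mast cells and basophils, and had the highest level of them per kilobase, at 3.31 CPM per kb in KO and 4.38 CPM per kb in WT. It had 24.2, 9.65 and 34.6 CPM in KO and 25.7, 35.7 and 29.3 CPM in WT, overlapping widely (log2 fold change -0.41 ± 0.41, adjusted p = 0.624). The 14 listed mast-cell, basophil and eosinophil genes summed to 83.9, 58.6 and 131 CPM in KO and 241, 112 and 120 CPM in WT. Of the 13 tested 1 rose and 1 fell by edgeR, or 15.4%, against 3.56% of all genes. The part of such cells in the Il1rl1 values was not tested. Il1rap, the accessory chain shared by IL-1, IL-33 and IL-36 receptors and a surface marker of human chronic myeloid leukaemia stem cells, had 15.6, 16.1 and 16.02 CPM in KO and 22.0, 19.7 and 17.7 CPM in WT. The groups did not overlap, and the log2 fold change was -0.31 ± 0.14 (adjusted p = 0.258). Il18r1 and Il18rap, the IL-18 receptor chains, had 0.630 to 1.94 and 3.08 to 6.99 CPM in KO, against 1.496 to 5.29 and 2.34 to 19.0 CPM in WT, with adjusted p of 0.191 and 0.630. The Il18rap log2 fold change was -0.79, and 0.81 without WT1. Il1r1 reached 1.04 CPM in KO and 1.88 CPM in WT, and the decoy receptor Il1r2 reached 4.03 CPM in KO and 3.78 CPM in WT. The Il33 ligand had no count.

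Interferon receptors were slightly higher in KO and IL-10 receptor alpha was lower, with 0 of the 6 past edgeR's test (3 at an unadjusted p under 0.05, against 22% of all genes, 1 by DESeq2, 0 by limma-voom). Ifngr1 had 149, 127 and 184 CPM in KO and 125, 119.6 and 122 CPM in WT (log2 fold change 0.33 ± 0.13, adjusted p = 0.214). Ifnar2, the high-affinity type I interferon chain, had 59.5, 58.1 and 63.6 CPM in KO and 45.1, 53.9 and 46.0 CPM in WT (log2 fold change 0.32 ± 0.11, adjusted p = 0.140). Ifnar1, its partner, had 47.5 to 51.6 CPM in KO and 39.2 to 47.1 CPM in WT (log2 fold change 0.20 ± 0.11, adjusted p = 0.333). For these 3 genes the groups did not overlap, against 28% of all genes tested. The groups overlapped for Ifngr2, with 18.2 to 20.4 CPM in KO and 16.8 to 19.5 CPM in WT. Il10ra, the ligand-binding chain for IL-10, had 6.57, 2.90 and 2.06 CPM in KO and 34.6, 7.44 and 14.5 CPM in WT, also without overlap. Its means were 3.84 ± 2.40 CPM in KO and 18.8 ± 14.1 CPM in WT (SD, n = 3 each), 79.6% lower, with a log2 fold change of -2.29 ± 0.66 and an adjusted p of 0.105 by edgeR, against 0.00150 by DESeq2. Without WT1, the highest library, its log2 fold change was -1.53. Il10rb, the chain shared with other cytokines of that class, had 33.7 to 41.2 CPM in KO and 38.2 to 40.0 CPM in WT.

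Both signalling TGF-beta receptor genes were higher in every KO library and missed edgeR's threshold. Both had an unadjusted p under 0.05 and were called by DESeq2 but not by limma-voom. Over all genes tested, 13.6% had all KO libraries above all WT libraries. An unadjusted p under 0.05 was reached by 22% of all genes in either direction. Tgfbr1, the type I kinase, had 45.4, 49.7 and 38.5 CPM in KO and 33.6, 16.6 and 18.4 CPM in WT. Its means were 44.5 ± 5.64 CPM in KO and 22.9 ± 9.34 CPM in WT (SD, n = 3 each), 1.95-fold, with a log2 fold change of 0.96 ± 0.28 and an adjusted p of 0.105, or 0.0326 without WT1. Tgfbr2, the type II kinase that binds the ligand, had 25.4, 21.6 and 22.5 CPM in KO and 19.4, 10.8 and 12.0 CPM in WT. The means were 23.2 ± 2.02 CPM in KO and 14.0 ± 4.68 CPM in WT, 1.65-fold, with a log2 fold change of 0.72 ± 0.24 and an adjusted p of 0.147. Tgfbr3, the co-receptor betaglycan, rose: it had 109, 141 and 85.3 CPM in KO and 52.8, 59.2 and 62.8 CPM in WT, 1.92-fold, with an adjusted p of 0.0437. Bmpr2, the type II receptor for bone morphogenetic proteins, fell: it had 12.2, 6.07 and 3.93 CPM in KO and 50.2, 34.8 and 34.5 CPM in WT, 81.4% lower, with an adjusted p of 0.0323. Tgfb1, the main ligand, averaged 429 CPM in KO and 390 CPM in WT (adjusted p = 0.730).

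The rest of the pathway was read from 4 lists chosen by role. Of 44 ligand genes 43 had a row, 21 were tested, 0 rose and 1, Ebi3, fell. Of 57 other receptors of the same families 41 were tested, 5 rose and 2 fell. Of 36 kinases, STATs and adaptors, all tested, 1 rose and 1 fell, and of 27 negative regulators, all tested, 0 rose and 2 fell. The share called in either direction was 4.76%, 17.1%, 5.56% and 7.41% of those tested in that order, against 3.56% of all genes (1.64% higher and 1.92% lower). The medians of the log2 fold change were 0.14, 0.07, 0.07 and 0.09 in the same order, against 0.01 over all genes. At an unadjusted p under 0.05, 2 ligands and 3 negative regulators were higher, and DESeq2 called 1 of each higher and limma-voom 0.

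Of the other receptors, Cd27, Tnfrsf21, Kit and Csf1r rose besides Tgfbr3. Cd27, a costimulatory TNF-family receptor of lymphocytes, had 10.8, 10.8 and 8.27 CPM in KO and 1.09, 0.780 and 1.86 CPM in WT, 8.02-fold, with an adjusted p of 0.0165. The T-cell genes above also summed higher in KO, as did 12 listed B-cell genes. The B-cell genes summed to 111, 65.4 and 172 CPM in KO and 6.02, 44.3 and 6.81 CPM in WT. Of the 10 B-cell genes tested, 3 were past the test and higher, against 1.64% of all genes. Within the groups the B-cell sum was highest in KO3 and WT2, the libraries where Cd27 was lowest. How the listed B-cell genes passed the low count filter was not counted, so their share is no support for a shift of that list. By limma-voom 2 of them rose. The part of lymphocytes in the Cd27 difference was not tested. Tnfrsf21, death receptor 6, had 103, 108 and 103 CPM in KO and 50.3, 55.0 and 59.0 CPM in WT, 1.91-fold, with an adjusted p of 0.00804. It was the only one of the 12 pathway genes called to pass with any 1 library left out. Kit, the stem cell factor receptor, had 75.9, 74.8 and 44.6 CPM in KO and 25.6, 9.90 and 18.1 CPM in WT, 3.64-fold, with an adjusted p of 0.0450. Csf1r, the macrophage colony-stimulating factor receptor, had 26.7, 8.08 and 5.38 CPM in KO and 1.23, 0.948 and 0.840 CPM in WT, 13.3-fold, with an adjusted p of 0.0336, and 6.67-fold without KO1. The 14 macrophage and monocyte genes, which include Csf1r, summed to 208, 124 and 127 CPM in KO and 98.7, 60.4 and 45.1 CPM in WT. Of the 14, 3 were higher past the test, Csf1r among them, against 1.64% of all genes. Sum and count are thus not independent of Csf1r. How these genes passed the low count filter was not counted either, so their share is no support for a shift of that list. Limma-voom called 2 of the 14 higher. The part of macrophages in the Csf1r difference was not tested.

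Inside the cell, 1 kinase rose and an adaptor and 2 inhibitors fell. Jak2, the kinase bound to Csf2rb and several other receptors, had 118, 105 and 119.7 CPM in KO and 83.9, 81.4 and 72.7 CPM in WT, 1.44-fold, with an adjusted p of 0.0364. Gab2, a docking adaptor downstream of BCR-ABL and of cytokine receptors, had 33.3, 31.2 and 35.6 CPM in KO and 51.7, 53.9 and 45.2 CPM in WT, 33.6% lower, with an adjusted p of 0.0426. Socs1, an inhibitor of JAK kinases that cytokine signals themselves induce, had 33.4, 29.2 and 24.0 CPM in KO and 69.8, 47.3 and 57.8 CPM in WT, 50.4% lower, with an adjusted p of 0.0370. Socs2, a feedback inhibitor of the same family, had 63.0, 75.2 and 80.2 CPM in KO and 114, 101 and 112 CPM in WT, 33.2% lower, with an adjusted p of 0.0435. For all 4 genes the KO and WT libraries did not overlap, against 28% of all genes tested. The 4 calls rest on the same values, so the lack of overlap adds no support to them.

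All of the 12 pathway calls but Tnfrsf21 were lost in at least 1 fit without a library. Ebi3, Kit, Gab2 and Socs2 missed the threshold in each fit without 1 library, with adjusted p of at most 0.156. Tgfbr3 passed only without KO3, Bmpr2 only without KO1, Jak2 only without KO2 and Socs1 only without WT2. Csf1r passed without any 1 KO library and missed without any 1 WT library, Il2ra is given above, and Cd27 missed only without KO1 (adjusted p = 0.0569). The direction of each of the 12 was the same in all of these fits. With no scaling beyond total counts, Tgfbr3 and Kit had adjusted p of 0.0552 and 0.0513. With limma-voom, Csf1r, Ebi3 and Tgfbr3 had 0.0874, 0.0577 and 0.0526, and without the low count filter Kit had 0.0584.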

How the data were processed

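The authors deposited 1 table of raw read counts per gene, with 53819 genes and 1 column for each of the 6 libraries; no sample column was left unused. Per the labels' protocols, polyA RNA of sorted leukaemia cells was pre-amplified with a low-input SMARTer kit, made into Nextera XT libraries, which do not mark strand, and sequenced as single-end reads of 100 nt. Counts were made with fastp 0.23.1, STAR 2.7.9a and featureCounts of Subread 2.0.1, per the submitters' processing notes; for parameters, build and annotation, the sources used here give nothing. The reads carry no molecular identifiers, so intervals of counting error do not cover amplification.

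From those counts, edgeR 4.0.16 in R 4.3.3 (TMM scaling, filterByExpr with a minimum count of 10 and total of 15, robust quasi-likelihood fit, no covariate) compared the 3 KO with the 3 WT libraries over 15232 genes, calling genes at a Benjamini-Hochberg adjusted p under 0.05; the biological coefficient of variation was 0.323. SE is the log2 fold change divided by the square root of F. DESeq2 1.42.0 and limma-voom (limma 3.58.1) were alternatives, as were other scalings, other filters, a replicate block and leaving out each library. The fits were tested on simulated counts. In them edgeR recovered 7.46% of 1.5-fold, 34.3% of 2-fold and 68.2% of 4-fold changes, with 6 false calls. DESeq2 recovered 59.7% of 2-fold changes, with 61 false calls. A gene that edgeR did not call may therefore still differ. CPM use TMM-scaled totals, and lengths are exon unions of GENCODE M21. Promoters and gene order are from RefSeq (GRCm38.p6). No pair of libraries of 1 group agreed within sampling noise: their chi-square per degree of freedom was 32.8 to 113.

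Every receptor gene past the threshold, every one without overlap at an unadjusted p under 0.05 and the highest of each family is given in every library; for pathway lists, each gene past the threshold. The members and lists were chosen with earlier results of these data known.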

Additional observations from a re-analysis of the deposited data

How the results depend on the processing

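With 3 libraries a group, single calls depended on single libraries. Over all genes, 250 were higher and 293 lower in KO; DESeq2 gave 1075 and 920, the replicate block 8 and 20, and leaving out 1 library 13 to 371 higher and 29 to 247 lower. Of the receptor genes, 4 were higher and 0 lower; DESeq2 gave 7 and 3, the block 0 and 0, and leaving out 1 library 0 to 4 and 0. DESeq2 added Il6st, Tgfbr1 and Tgfbr2 as higher and Csf2rb2, Il10ra and Il4ra as lower. Without a filter Il31ra had an adjusted p of 0.0525, and with limma-voom 0.0622. Of the pathway genes, 6 were higher and 6 lower; DESeq2 gave 14 and 12, the block 0 and 0, and leaving out 1 library 2 to 5 and 0 to 3. The block was an alternative and not the main fit, since the labels give no pairing. Same-numbered libraries correlated at 0.04, -0.28 and -0.09 in their deviations from the group mean. Over all pairs of a KO and a WT library the range was -0.28 to 0.33. Deviations from a mean of 3 libraries are tied to each other, so these values cannot decide whether libraries were prepared in pairs. With the block 28.6% of all calls were higher, against 46% without it. All 4 called receptor genes kept their direction in every setting and in every fit without 1 library. Il1r2 changed sign with limma-voom (-0.092). With 1 library left out, these log2 fold changes crossed 0: Il27ra -0.070 to 0.20, Il2rg -0.11 to 0.17, Il15ra -0.31 to 0.049, Il1r1 -3.05 to 0.31, Il1r2 -0.68 to 1.60, Il18rap -1.23 to 0.81 and Tnfrsf1a -0.17 to 0.26. The cause was not tested. Other scalings moved no receptor call. The alternatives for the neighbouring genes and the pathway lists were added after seeing the data. Genes with few counts, such as Il6ra and Il1r1, allow no firm direction at this depth.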
